A study of Danio rerio with 16 samples.

Results

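The difference between the effect of insulin at 4 hours post injection (hpi) and its effect at 0.5 hpi was measured in whole zebrafish embryos, with all 16 RNA libraries of the series. For each gene the effect was the log2 ratio of insulin to PBS at one time, and the difference was the effect at 4 hpi minus the effect at 0.5 hpi, so a negative difference marks a gene that was lower in insulin, relative to PBS, at the later time than at the earlier one. Of 21650 genes tested, out of 31452 in the tables, 2076 had a different effect at the 2 times (edgeR, adjusted p under 0.05; called in what follows), which is 9.59% of the genes tested. These 2076 genes were sorted by their effect at each time in the same model, at an unadjusted p under 0.05. The effect reversed its sign in 375 genes, passed at 4 hpi only in 1494 (late only), passed at 0.5 hpi only in 121 (early only), and had the same sign at both times in 86.

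The 4 groups were PBS at 0.5 hpi, human recombinant insulin at 0.5 hpi, PBS at 4 hpi and insulin at 4 hpi, with 4 libraries in each, each labelled as a pool of 10 embryos. Embryos were 4 days old and of ABTL background, with no transgene or mutation named in the labels. All had received 1 nl of fluid into the caudal aorta, so the PBS embryos carry the injury of the injection as well; the insulin concentration is not given in the labels. The study's title concerns hyperinsulinemia and insulin resistance and names the phosphatase gene ptpn6. A change from 0.5 to 4 hpi holds the time since injection, the clock time and the age of the embryo, which cannot be told apart here. RNA came from whole embryos, so fewer cells of a type and less RNA per cell cannot be told apart either.

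Insulin acts through a receptor tyrosine kinase, PI3 kinase and AKT, which shut the FoxO factors out of the nucleus within minutes and change the transcription of metabolic genes over hours. The circadian clock is a feedback loop in which CLOCK and ARNTL proteins activate the period and cryptochrome genes, whose products repress them. Zebrafish tissues are directly sensitive to light, which induces some clock genes together with photolyases and other DNA repair genes. Immediate-early genes such as the AP-1 factors respond within minutes to growth factors, injury and stress and fade over hours. Inflammatory genes follow an injury more slowly.

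Library totals ran from 6535173 to 9628705 reads, and mitochondrial genes took 3.55% to 4.21% of them. Markers of all 9 tissues listed for a whole embryo were found, with at most 1 marker of a list without a read. A set of 4 libraries stood apart from the other 12, with under 10 CPM (counts scaled to library totals) of wdr90 and si:dkey-15h8.1. At 0.5 hpi these were replicate 1 of PBS with replicates 1 and 2 of insulin, and at 4 hpi replicate 1 of insulin. Their summed red cell markers were at 4422 to 6320 CPM and those of the other 12 at 1693 to 2830 CPM. A term for these libraries was called in 4231 of the tested genes, which is 19.5%, and in 36 of the 375 genes that reversed, 195 of the late only, 7 of the early only and 2 of the same-direction genes. PBS replicates 2 and 3 at 0.5 hpi differed beyond counting error in 89 of 22287 genes, and other pairs within a group in 693 to 9454. They may come from 1 pool, which would leave 3 in that group, and they are counted as 2 libraries unless stated. Without the 4 libraries that stand apart, insulin at 0.5 hpi keeps only replicates 3 and 4, which differed in 693 of 22398 genes. PBS at 0.5 hpi then keeps replicates 2, 3 and 4. Values below are listed as replicates 1, 2, 3 and 4, and all p-values measure the spread between these libraries.

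With all 16 libraries more genes passed at 4 hpi than at 0.5 hpi. By themselves, 84 genes passed at 0.5 hpi (0.388%) and 6193 at 4 hpi (28.6%), by edgeR at an adjusted p under 0.05. The early count depends on the libraries and the tool. In the 12 libraries that remain without the 4 above, where insulin at 0.5 hpi keeps only replicates 3 and 4, 2844 genes passed at 0.5 hpi. The early count was 493 with a term for those 4 libraries, 495 with DESeq2 and 11 with the near-identical pair summed. It was 987, 10, 11 and 13 without PBS replicates 1, 2, 3 and 4 at 0.5 hpi in turn, 12 without insulin replicate 3 or 4 there, 189 without insulin replicate 1 at 4 hpi, and 42 to 47 without PBS replicates 1 to 3 or insulin replicates 2 to 4 at 4 hpi. At 4 hpi 7746 genes passed in the 12 libraries, and 4517 to 7235 with single libraries left out. Of the 84 genes called at 0.5 hpi, 36 were called for the difference: 21 reversed, 14 were early only and 1 had the same direction at both times. Of the 6193 called at 4 hpi, 4343 were not called for the difference. The difference was higher at 4 hpi in 830 genes (3.83% of those tested) and lower in 1246 (5.76%), so 40.0% of the calls were higher. Scaled by library totals alone, without TMM, 22.8% of 2193 calls were higher, and the median difference over all genes moved from 0.006 to -0.103. The groups that reversed made up 1.73% of all genes tested, late only 6.9%, early only 0.559% and same direction 0.397%. At the threshold, aplnra was just outside with a difference of 0.82.

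**Figure D1:**
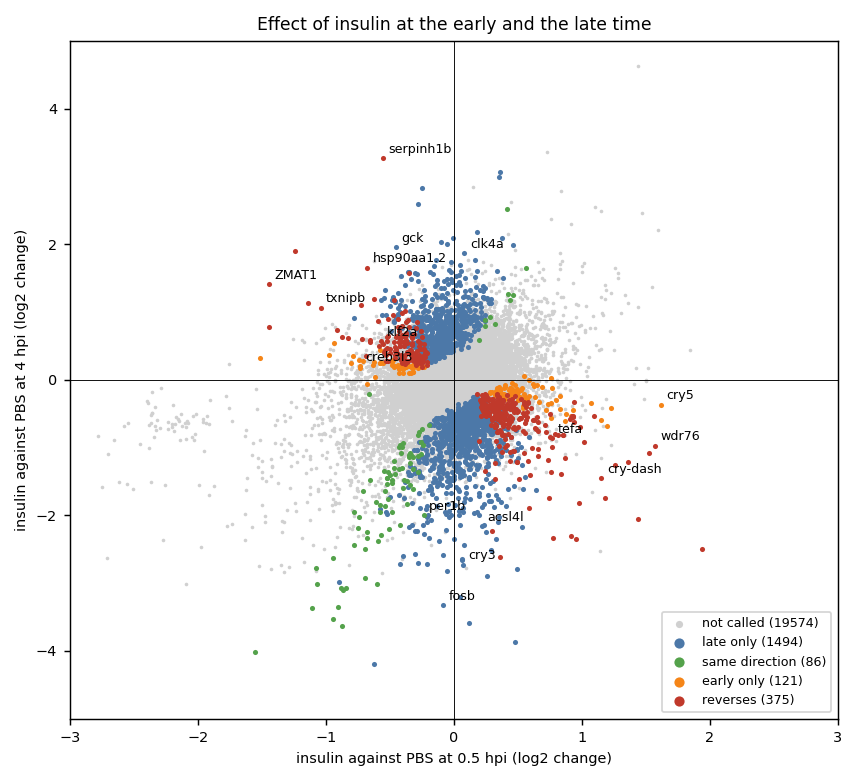
Effect of insulin at 0.5 hpi (horizontal) and at 4 hpi (vertical), both as log2 change of insulin against PBS, one point per gene tested, coloured by class, with 3 genes that were not called outside the axes. The red points of the 375 genes that reversed lie in the upper left and lower right, and the 1494 late only genes along the vertical axis.

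The counts depend on which libraries enter. Without the 4 libraries that stand apart, 2880 genes were called, 721 reversed, 1443 were late only and 538 early only. Of the genes sorted with 16 libraries, 253 of the 375 that reversed, 886 of the 1494 late only and 64 of the 121 early only kept their class there. With PBS replicates 2 and 3 at 0.5 hpi summed as 1 library, 1563 were called, 273 reversed, 1175 were late only and 57 early only. With both steps, 2299 were called, 607 reversed, 1152 were late only and 413 early only. Leaving out single libraries gave 1455 to 2940 calls, and without PBS replicate 4 at 0.5 hpi 589 genes reversed.

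The change of a gene's effect can come from the PBS group, from the insulin group or from both. Among the genes that reversed, 216 of 375 changed from 0.5 to 4 hpi in both PBS and insulin at an unadjusted p under 0.05, 215 of them in opposite directions, 108 changed in PBS alone and 51 in insulin alone. Among the late only genes 523 of 1494 changed in both, 742 in PBS alone and 229 in insulin alone. Of the early only genes 31 of 121 changed in both, 53 in PBS alone and 37 in insulin alone. By adjusted p, 2946 genes differed between 4 and 0.5 hpi in PBS and 633 in insulin. These changes make up the difference itself and are given as a description.

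Genes that reversed came in 2 directions. Insulin was above PBS at 0.5 hpi and below it at 4 hpi in 238 genes, and the other way round in 137. The median size of the effect was 0.39 at 0.5 hpi and 0.51 at 4 hpi on the log2 scale, and the difference was over 2-fold in 155 of the 375. The 4 insulin and 4 PBS libraries did not overlap in 188 of them at 0.5 hpi and in 307 at 4 hpi; over all genes tested the groups did not overlap in 6.1% at 0.5 hpi and 33.5% at 4 hpi. Both counts come from the values that sorted the genes and are a description. Of the 375, 19 passed at an adjusted p under 0.05 at both times. The number of such genes was 289 in the 12 libraries, 82 with a term for the libraries that stand apart, 63 with DESeq2 and 5 with the near-identical pair summed. Without PBS replicates 1, 2, 3 and 4 at 0.5 hpi in turn it was 82, 4, 5 and 5, without insulin replicate 3 or 4 there 5, and without single libraries at 4 hpi 12 to 26.

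Light-responsive genes of DNA repair were among those first higher and then lower in insulin. Of 16 listed, 6 were called, all with a negative difference: 4 reversed and 2 were early only. This share of 37.5% stands beside 9.59% of all genes tested, and the lists below are to be set beside the same share. Counts of a list in another fit are to be set beside all calls of that fit. These were 2880 of 22003 genes in the 12 libraries, 1563 of 21929 with the near-identical pair summed and 2299 of 22036 with both steps. With single libraries left out they ran from 1455 to 2940. The list had a median effect of 0.54 at 0.5 hpi and -0.049 at 4 hpi, beside 0.019 and 0.015 over all genes tested. cry-dash (chromosome 24), a photolyase-like member of the cryptochrome family, was at 22.2, 23.7, 22.4 and 26.3 CPM in PBS and 31.7, 35, 73 and 70.8 CPM in insulin at 0.5 hpi. At 4 hpi it was at 79.8, 76.5, 72.6 and 78.8 CPM in PBS and 27.4, 30.3, 27.7 and 26.4 CPM in insulin. Insulin lay above PBS in all libraries at the early time, most in replicates 3 and 4, and below it in all at the late time, where PBS was near the level of those 2 replicates. The effect was 1.15 (SE 0.21) at 0.5 hpi and -1.46 (SE 0.21) at 4 hpi, a difference of -2.61 (SE 0.30, adjusted p = 4.8e-05). In the 12 other libraries the effect at 0.5 hpi was 1.55 and the difference -2.99.

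ercc6 (chromosome 13), which acts in the repair of transcribed strands, was at 20.4, 20.7, 23.8 and 20.7 CPM in PBS and 30.2, 36.1, 43.5 and 51.2 CPM in insulin at 0.5 hpi. By 4 hpi PBS stood at 33.5, 35.4, 39.4 and 39.6 CPM and insulin at 19.6, 26.3, 26.5 and 26.4 CPM, without overlap at either time. The difference was -1.49 (SE 0.20, adjusted p = 0.000119). cry5 (chromosome 10), which encodes the zebrafish (6-4) photolyase, was early only. It was at 10.0, 6.73, 7.11 and 7.22 CPM in PBS and 14.8, 13, 31.6 and 36.6 CPM in insulin at 0.5 hpi, and at 19.8, 24.6, 30.1 and 33.9 and 23.9, 20.5, 20.3 and 19.3 CPM at 4 hpi. The groups overlapped at 4 hpi and the effect there was -0.37 (SE 0.27), with a 95% interval of -0.94 to 0.20, while at 0.5 hpi it was 1.62 (SE 0.29). Insulin replicates 1 and 2, which stand apart, lay below replicates 3 and 4 at 0.5 hpi in both cry-dash and cry5. The other 3 called genes of the list, named after their values were seen, were lonrf1 (difference -2.02) and the damage sensors ddb2 (-1.64) and xpc (-1.42). In the 12 libraries all 6 reversed.

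tefa (chromosome 12), a PAR bZIP factor of the clock output that light induces in zebrafish, had a small spread in each group. It was at 178, 130.3, 130.1 and 145 CPM in PBS and 217, 244, 257 and 279 CPM in insulin at 0.5 hpi. The 4 hpi libraries held 326, 318, 295 and 337 CPM in PBS and 184, 179, 158 and 177 CPM in insulin. The insulin group fell over time by 0.51 while PBS rose by 1.13, and the groups did not overlap at either time. The effects were 0.77 (SE 0.11) and -0.87 (SE 0.11), and the difference was -1.64 (SE 0.16, adjusted p = 2.6e-06). wdr76 (chromosome 7), a WD-repeat protein linked to DNA damage in human cells, was at 7.33, 4.58, 6.32 and 5.41 CPM in PBS and 11.3, 13.1, 22.9 and 23.3 CPM in insulin at 0.5 hpi. PBS at 4 hpi was at 17.7, 13.9, 19.8 and 19 CPM and insulin at 11.5, 6.61, 7.73 and 10.0 CPM, again without overlap and with opposite order, and the difference was -2.55 (SE 0.33, adjusted p = 0.00011). hsf2, a heat shock factor, went from 43 to 50.9 CPM in PBS and 57.4 to 70.4 in insulin at 0.5 hpi to 58.4 to 62 and 22.9 to 36.6 CPM at 4 hpi (difference -1.52, adjusted p = 1.23e-05). By adjusted p, the early effect of hsf2 did not pass (0.0773).

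Metabolic and RNA-processing enzymes were among the others of this direction. dhrs12, of the short-chain dehydrogenase family, was at 13.2 to 19.4 CPM in PBS and 23.8 to 33.7 in insulin at 0.5 hpi, and at 35.2 to 41.9 and 24.2 to 29.2 CPM at 4 hpi (difference -1.47, adjusted p = 6.96e-05). dcps, the scavenger enzyme of mRNA caps, had a difference of -1.69 (adjusted p = 3.48e-05), and pogzb, a zinc finger gene, one of -0.89 (adjusted p = 0.000128). None of these 3 overlapped between insulin and PBS at either time. fasn, fatty acid synthase, was at 21.1, 24.9, 26.3 and 29 CPM in PBS and 30.1, 29.8, 32.7 and 34.2 CPM in insulin at 0.5 hpi. It was at 46.5, 47.7, 47.3 and 51.8 CPM in PBS and 30.0, 31.3, 36.6 and 33.2 CPM in insulin at 4 hpi, so it rose over time in PBS (by 0.93) and changed by 0.048 in insulin. The groups did not overlap at either time, although the effect at 0.5 hpi of 0.33 (SE 0.11) did not pass by adjusted p (0.17). nop2, a methyltransferase of ribosomal RNA, overlapped at 0.5 hpi through PBS replicate 1 at 51.3 CPM, against 40.2 to 54.8 in insulin and 27.3 to 29.1 in the other PBS libraries. Without the 4 libraries that stand apart its difference was -1.27 in place of -0.92. With all 16 libraries the early effect of nop2 did not pass by adjusted p (0.16).

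Less well known genes moved in the same way. si:dkey-104n9.1 was at 1.62 to 2.59 CPM in PBS and 4.64 to 6.54 CPM in insulin at 0.5 hpi, and at 4.40 to 6.27 and 1.60 to 2.82 CPM at 4 hpi (difference -2.58). si:ch73-25i22.2 had a difference of -2.61, si:ch73-6k14.2 of -2.80, CR753817.1 of -3.50 and si:ch211-161h7.5 of -2.94, with adjusted p from 5.21e-05 to 0.00395. The early effect did not pass by adjusted p in si:ch73-6k14.2 (0.1075), CR753817.1 (0.1125) and si:ch211-161h7.5 (0.175). Insulin and PBS overlapped at 0.5 hpi in si:ch73-6k14.2 and si:ch211-161h7.5, and CR753817.1 averaged 2.16 CPM. The potassium channel gene kcnk9 was called (difference -2.52, adjusted p = 0.0305) with 72.7 CPM in PBS replicate 1 at 4 hpi against 13 to 28.9 CPM in the other PBS libraries there. It was not called in 9 of the 28 alternatives, the 12 libraries among them (adjusted p = 0.0915). With all 16 libraries the effect of kcnk9 passed by adjusted p at neither time (0.276 at 0.5 hpi and 0.052 at 4 hpi).

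**Figure D2:**
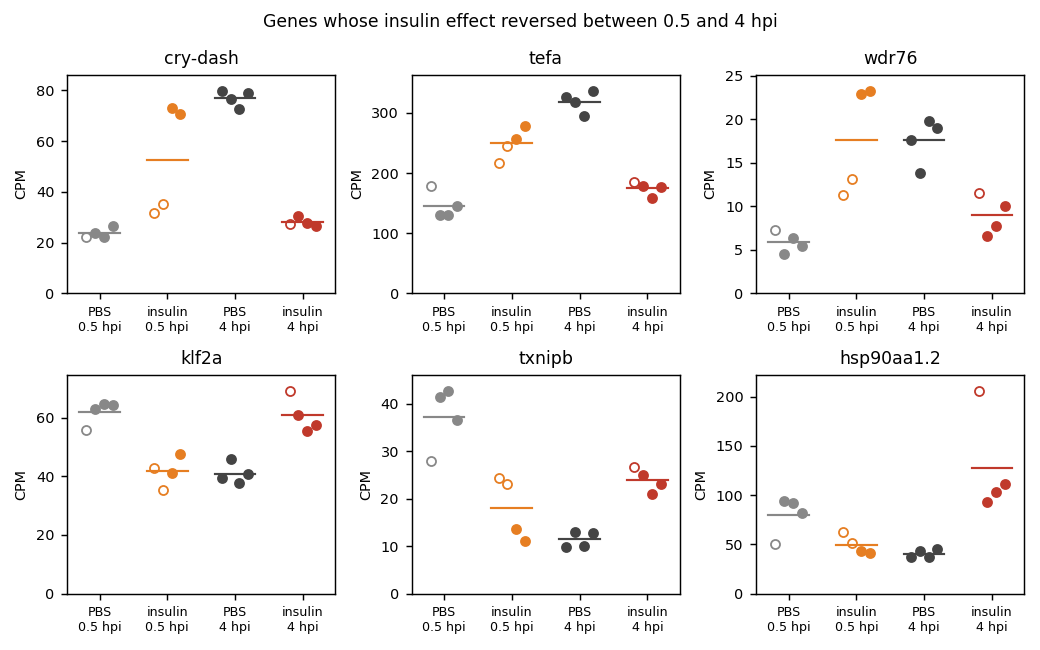
CPM of 6 genes that reversed, one circle per library, replicates 1 to 4 from left to right in each group, with a line at the group mean; open circles are the libraries that stand apart. In cry-dash, tefa and wdr76 insulin is above PBS at 0.5 hpi and below it at 4 hpi, and in klf2a, txnipb and hsp90aa1.2 the order is the other way round, with hsp90aa1.2 overlapping at 0.5 hpi.

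The opposite direction, first lower and then higher in insulin, held a flow-responsive factor, a FoxO-related target and chaperones. klf2a (chromosome 22), a Kruppel-like factor that blood flow induces in endothelium, was at 55.8, 63, 64.5 and 64.2 CPM in PBS and 42.8, 35.4, 41.3 and 47.6 CPM in insulin at 0.5 hpi. Its levels at 4 hpi were 39.4, 45.8, 37.6 and 40.9 CPM in PBS and 69.1, 61, 55.4 and 57.6 CPM in insulin. The 4 groups formed 2 levels, PBS early with insulin late and insulin early with PBS late, and insulin and PBS did not overlap at either time. The effects were -0.57 (SE 0.11) and 0.57 (SE 0.11), a difference of 1.14 (SE 0.15, adjusted p = 9.42e-05). The difference was 1.06 in the 12 libraries. Of 19 Kruppel-like factors tested, klf2a and, named after its value was seen, klf6a (late only, difference -0.63) were the 2 called. This was a share of 10.5%, beside 9.59% of all genes tested.

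txnipb (chromosome 16), whose product restrains glucose uptake, was at 27.9, 41.5, 42.6 and 36.4 CPM in PBS and 24.3, 23, 13.6 and 11.2 CPM in insulin at 0.5 hpi. At 4 hpi it was at 9.84, 13.1, 10.1 and 12.9 CPM in PBS and 26.7, 25, 21.1 and 23 CPM in insulin. The groups did not overlap at either time, and the reversal went with a log2 change of -1.69 over time in PBS and of 0.41 in insulin. The difference was 2.1 (SE 0.29, adjusted p = 0.000207), or 2.73 in the 12 libraries. diabloa, which encodes a mitochondrial protein that promotes apoptosis, was at 40.9 to 70.7 CPM in PBS and 25.8 to 38.1 CPM in insulin at 0.5 hpi, and at 26.3 to 33.9 and 42.2 to 48.8 CPM at 4 hpi. Its difference was 1.51 (SE 0.21, adjusted p = 0.000183). ZMAT1, a zinc finger gene, was at 2.82 to 4.58 CPM in PBS and 0.935 to 2.09 CPM in insulin at 0.5 hpi, and at 1.63 to 2.26 and 2.94 to 6.57 CPM at 4 hpi (difference 2.86, adjusted p = 0.000128). Neither gene overlapped between insulin and PBS at either time.

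The chaperone genes below were highest in insulin replicate 1 at 4 hpi, which stands apart. serpinh1b (chromosome 15), which encodes the collagen chaperone Hsp47, was at 35.1, 41.3, 49.2 and 28.9 CPM in PBS and 32.6, 23.2, 22.6 and 26.9 CPM in insulin at 0.5 hpi. By 4 hpi PBS stood at 11.3, 11.7, 13.6 and 14.4 CPM and insulin at 199, 91.4, 101 and 103 CPM. Insulin was above PBS in all libraries at 4 hpi, with the library that stands apart the highest, while the groups overlapped at 0.5 hpi, where the effect of -0.55 (SE 0.23) did not pass by adjusted p (0.3). The difference was 3.82 (SE 0.33, adjusted p = 3.64e-06), and 3.65 in the 12 libraries. hsp90aa1.2, of the Hsp90 family, was at 49.9 to 93.9 CPM in PBS and 41.2 to 62.5 in insulin at 0.5 hpi, with overlap, and at 37, 43.7, 37.2 and 44.9 CPM in PBS and 206, 92.7, 103 and 111 CPM in insulin at 4 hpi (difference 2.33, and 2.43 in the 12 libraries). With all 16 libraries the early effect of hsp90aa1.2 did not pass by adjusted p (0.221). hsp70l, an inducible Hsp70, was at 27, 34.8, 31.7 and 41.9 CPM in PBS and 102, 40.4, 49.8 and 38.6 CPM in insulin at 4 hpi, where the groups overlapped. Its difference of 2.21 (SE 0.52, adjusted p = 0.0181) came with 16.4 to 43 CPM in PBS and 7.77 to 19.1 CPM in insulin at 0.5 hpi, which also overlapped. Its effect passed by adjusted p at neither time (0.116 at 0.5 hpi and 0.118 at 4 hpi). In the 12 libraries the difference was 1.71. The effect at 4 hpi was 0.35 there and just missed the unadjusted threshold, so hsp70l was early only.

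Of 46 genes of the unfolded protein and heat shock responses, 17 were called, 16 of them with a positive difference: 3 reversed and 13 were late only and up. The median effect was -0.026 at 0.5 hpi and 0.56 at 4 hpi. Among the late only members dnaja1l, a co-chaperone, was at 10.6 to 12.7 CPM in PBS and 23.8 to 46.1 CPM in insulin at 4 hpi (difference 1.54, adjusted p = 0.000477). The endoplasmic chaperone gene hspa5 had a difference of 1.28 (adjusted p = 0.00138). The 1 member with a negative difference was the heat shock factor hsf1 (-1.04, adjusted p = 0.00766). Both hspa5 and hsf1 were named after their values were seen. The heat shock factor hsf2 (difference -1.52, adjusted p = 1.23e-05) was held by the clock output list and is not counted here. With library totals 16 members were called, 15 of them higher, in the 12 libraries 19, 18 of them higher, and without PBS replicate 2 at 0.5 hpi 11.

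Other genes of this direction included egln3, an oxygen-sensing prolyl hydroxylase that hypoxia induces, at 4.74, 9.29, 9.47 and 4.93 CPM in PBS and 2.88, 3.83, 1.87 and 3.35 CPM in insulin at 0.5 hpi. The 4 hpi libraries held 4.26, 3.36, 3.41 and 2.14 CPM in PBS and 4.69, 20.6, 11.6 and 12.1 CPM in insulin, with insulin replicate 1, which stands apart, closest to PBS. The difference was 3.14 (SE 0.54, adjusted p = 0.00174), and 3.81 in the 12 libraries. With all 16 libraries the early effect of egln3 did not pass by adjusted p (0.163). krt15, a keratin of the skin, did not overlap at 0.5 hpi (258 to 317 CPM in PBS, 179 to 240.4 in insulin) but did at 4 hpi (190.2 to 238 and 223 to 306 CPM), with a difference of 0.71 (SE 0.17, adjusted p = 0.0122). The effect of krt15 passed by adjusted p at neither time (0.12 at 0.5 hpi and 0.0685 at 4 hpi). The uncharacterised CABZ01069576.1 (1.82) and FAM26E (1 of 2) (1.43) averaged under 3 CPM. Neither reversed in the 12 libraries, where CABZ01069576.1 was late only and FAM26E (1 of 2) early only. With all 16 libraries the effect of FAM26E (1 of 2) passed by adjusted p at neither time (0.148 and 0.101). A name such as "1 of 2" is the table's mark for one of several copies of a gene, between which reads may have been split.

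Late only genes were the largest class, with 858 lower and 636 higher in insulin at 4 hpi. Their median effect was 0.13 in size at 0.5 hpi and 0.78 at 4 hpi, and the difference was over 2-fold in 528. Of these 1494 genes, 1484 also passed at 4 hpi by adjusted p. The groups did not overlap at 4 hpi in 1459 of the 1494, beside 33.5% of all genes tested. That count comes from the values that sorted the genes and is a description. An effect that missed the threshold at 0.5 hpi is not shown to be absent, and 95% intervals of it are given below.

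Genes listed as clock repressors were mostly lower in insulin at 4 hpi. Of 19 tested, 14 were called, 13 with a negative difference, and the list's median effect was 0.011 at 0.5 hpi and -1.84 at 4 hpi. cry3 (chromosome 25) had the smallest p of the late only genes. It was listed as a cryptochrome, and whether its product represses the clock was not tested. It was at 73.4, 96.2, 101 and 113 CPM in PBS and 91.9, 107, 97.8 and 105 CPM in insulin at 0.5 hpi, with overlap and an effect of 0.069 (95% interval -0.16 to 0.30). PBS at 4 hpi was at 147, 142, 129 and 144 CPM and insulin at 22.8, 21.5, 18.9 and 21.3 CPM, an order without overlap that all libraries shared. The difference was -2.80 (SE 0.16, adjusted p = 1.89e-09), made of a rise over time in PBS (by 0.55) and a change of -2.25 in insulin. cry1b, another cryptochrome, counted as reversing, since its effect of 0.30 (SE 0.11) at 0.5 hpi had the opposite sign, though without passing by adjusted p (0.225). It was at 76.7, 71.8, 64.6 and 68.8 CPM in PBS and 14.1, 14.2, 15.9 and 15.9 CPM in insulin at 4 hpi (difference -2.53, adjusted p = 6.95e-09).

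nr1d2b, a nuclear receptor that represses the activator genes, was at 254 to 325 CPM in PBS and 291 to 357 CPM in insulin at 0.5 hpi, and at 286 to 324 and 136 to 146 CPM at 4 hpi. Its PBS level changed by 0.065 over time and its insulin level by -1.22. The period gene per1a was at 86.3, 80.5, 65.3 and 79.5 CPM in PBS and 16.4, 11.3, 15.3 and 6.64 CPM in insulin at 4 hpi, a difference of -2.71 (SE 0.29, adjusted p = 2e-05). The paralog per1b and the clock repressor C19H1orf51 (1 of 2) had the same direction at both times. per1b was at 213, 268, 253 and 256 CPM in PBS and 215, 199, 218 and 209 CPM in insulin at 0.5 hpi, where the groups overlapped through PBS replicate 1. It was at 217 to 236 and 52.4 to 60.5 CPM at 4 hpi, a difference of -1.76 (SE 0.13, adjusted p = 1.02e-07). For C19H1orf51 (1 of 2) the difference was -1.47 (SE 0.18, adjusted p = 5.21e-05). The only listed repressor with a positive difference was cry2a (difference 1.15, SE 0.16, adjusted p = 0.00021), named after its value was seen.

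The activators moved less but in the same direction. Of 11 tested, 8 were called, all with a negative difference, 7 late only and 1 reversing, and the medians were 0.22 at 0.5 hpi and -0.70 at 4 hpi. arntl2 was at 8.46, 9.69, 9.61 and 8.78 CPM in PBS and 11.2, 10.1, 11.7 and 11.5 CPM in insulin at 0.5 hpi. Its levels at 4 hpi were 14.9, 16.4, 15.7 and 17.9 CPM in PBS and 10.2, 7.37, 6.26 and 8.65 CPM in insulin. The insulin libraries lay above PBS at 0.5 hpi and below it at 4 hpi without overlap, although the early effect of 0.28 (SE 0.14) had a 95% interval of -0.013 to 0.58. The difference was -1.29 (SE 0.20, adjusted p = 0.000549). clock was at 39.7 to 45.5 CPM in PBS and 17.4 to 27.2 CPM in insulin at 4 hpi (difference -1.05, SE 0.16, adjusted p = 0.000537). Of 17 clock output genes, 10 were called, all with a negative difference, with medians of 0.099 and -0.87. Among them were tefa and the heat shock factor hsf2, which this list holds. Named after their values were seen, others were the PAR bZIP genes tefb (difference -0.96), dbpa (-1.44) and dbpb (-1.23) and the repressor nfil3-5 (-1.57). Further activators, named in the same way, were npas2 (-2.16), rorcb (-2.14) and rorab (-1.02), which reversed.

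Splicing regulators moved the other way. Of 37 tested, 10 were called, all late only and up in insulin at 4 hpi, with medians of 0.16 at 0.5 hpi and 0.46 at 4 hpi. clk4a (chromosome 14), a kinase of the SR splicing proteins, was at 81.6, 96, 101 and 99.1 CPM in PBS and 100.2, 116, 91 and 92.6 CPM in insulin at 0.5 hpi. At 4 hpi it was at 68.6, 56.9, 57.4 and 63.8 CPM in PBS and 249, 221, 217 and 213 CPM in insulin, without overlap. The difference was 1.78 (SE 0.15, adjusted p = 4.76e-07), with a 95% interval of -0.14 to 0.30 for the early effect. rbm4.2, an RNA-binding splicing regulator, was at 27.7, 22.5, 22.3 and 28.8 CPM in PBS and 82.3, 83.4, 78.3 and 79.3 CPM in insulin at 4 hpi (difference 1.83, SE 0.17, adjusted p = 1.35e-06). safb, a nuclear scaffold protein that binds RNA, was at 67, 68.6, 73.7 and 80.2 CPM in PBS and 190.4, 179.7, 172 and 182 CPM in insulin at 4 hpi (difference 1.33, SE 0.13, adjusted p = 2.13e-06). In all 3 genes PBS fell over time (log2 changes of -0.62, -1.01 and -0.64) and insulin rose (by 1.17, 0.82 and 0.69). With library totals 6 members of the list were called, 5 higher and 1 lower. In the 12 libraries 11 were called, 10 of them higher, with 6 late only and 5 reversing. rbm4.2 was one of those that reversed, with an effect of -0.28 at 0.5 hpi.

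Cell cycle genes were called in 11 of 48, 8 of them late only and up, 2 late only and down and 1 reversing. Genes of mitosis formed the first set. tpx2, of the mitotic spindle, was at 47.1, 47.4, 43.8 and 36 CPM in PBS and 46.5, 39.3, 45 and 52.7 CPM in insulin at 0.5 hpi, with overlap. By 4 hpi PBS stood at 24.2, 22.5, 28.6 and 29.2 CPM and insulin at 55.8, 50.2, 48.6 and 50.5 CPM, so the late insulin level lay near that of both early groups and the PBS level below them. The difference was 0.90 (SE 0.16, adjusted p = 0.002). aspm, a spindle pole gene that the list does not hold, was at 21.1 to 24.6 and 54 to 62.1 CPM (difference 1.19, adjusted p = 0.000117), and the kinetochore motor cenpe at 30.2 to 37.1 and 46.1 to 59 CPM in PBS and insulin at 4 hpi (difference 0.75, adjusted p = 0.0054). Further members, named after their values were seen, were the mitotic kinase plk1 (0.75), the mitotic cyclin ccnb1 (0.84) and cdk1 (0.79), all up late. The atypical repressors e2f7 (-0.86) and e2f8 (-0.79) were the 2 that were late only and down, and rrm2, of nucleotide synthesis, reversed (-0.72). The list had medians of 0.13 and 0.43. Of the same genes 9 were called in the 12 libraries, 6 higher, with 3 late only and 2 reversing, and with the near-identical pair summed as well 5, 3 of them higher. Without PBS replicate 4 at 0.5 hpi 18 were called and without PBS replicate 2 at 4 hpi 7.

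Metabolic genes were among the late only genes with the smallest p. slc16a6b (chromosome 3), of the monocarboxylate transporter family, was at 76.3, 96.4, 93.3 and 109 CPM in PBS and 93.6, 94.2, 85.5 and 84.2 CPM in insulin at 0.5 hpi. The 4 hpi libraries held 188, 186, 175 and 183 CPM in PBS and 33.5, 48.9, 54.8 and 51.1 CPM in insulin, without overlap, with the lowest value in the library that stands apart. The difference was -1.89 (SE 0.18, adjusted p = 2.6e-06). In the 12 libraries slc16a6b and hsd17b12a were lower at both times, with effects at 0.5 hpi of -0.25 and -0.28. acsl4l (chromosome 5), which activates long-chain fatty acids, was at 13.2, 16.8, 16.2 and 17.1 CPM in PBS and 17.2, 18.9, 20.6 and 17 CPM in insulin at 0.5 hpi. PBS at 4 hpi was at 142, 117, 81.6 and 83.2 CPM and insulin at 22.5, 23, 29.6 and 19.3 CPM, so the large change over time was that of PBS (2.74, against 0.36 in insulin). Its difference was -2.39 (SE 0.24, adjusted p = 5.09e-06). hsd17b12a, of fatty acid elongation, was at 97.7 to 116 CPM in PBS and 27.8 to 36.4 CPM in insulin at 4 hpi (difference -1.61, adjusted p = 8.24e-06). ppargc1b, a coactivator of mitochondrial and lipid metabolism, was at 125 to 131 and 52.7 to 71.1 CPM there (difference -1.08, adjusted p = 0.000183).

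gck (chromosome 8), glucokinase, which insulin induces in liver, was at 3.04, 3.36, 3.68 and 4.69 CPM in PBS and 1.25, 1.74, 4.67 and 3.10 CPM in insulin at 0.5 hpi. Its levels at 4 hpi were 8.78, 7.44, 2.53 and 4.52 CPM in PBS and 23.9, 25.4, 14.8 and 26 CPM in insulin. Insulin was above PBS in every library at 4 hpi and overlapped it at 0.5 hpi, where the 95% interval of the effect was -1.31 to 0.41. The difference was 2.41 (SE 0.52, adjusted p = 0.0084), and 1.97 in the 12 libraries, where it was not called (adjusted p = 0.0654). pfkfb4, which sets the level of an activator of glycolysis, fell (19.4 to 25.2 CPM in PBS and 13 to 14.7 in insulin at 4 hpi, difference -0.76, adjusted p = 0.0187). These were 2 of the 4 called among 37 genes of glucose uptake and glycolysis, a share of 10.8% beside 9.59% of all genes. Of 34 lipid synthesis genes 8 were called, 2 reversing with insulin higher first, 2 late up, 2 late down, 1 early up and 1 in the same direction. Beside fasn and ldlr these included, named after their values were seen, the desaturase gene scd (difference -1.93), which reversed, and late only the factor srebf1 (-1.29), the last enzyme of triglyceride synthesis dgat2 (0.73) and acetyl-CoA carboxylase acaca (0.57). With the 12 libraries 14 were called, 13 of them with a negative difference and 6 reversing, and without PBS replicate 4 at 4 hpi 5.

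**Figure D3:**
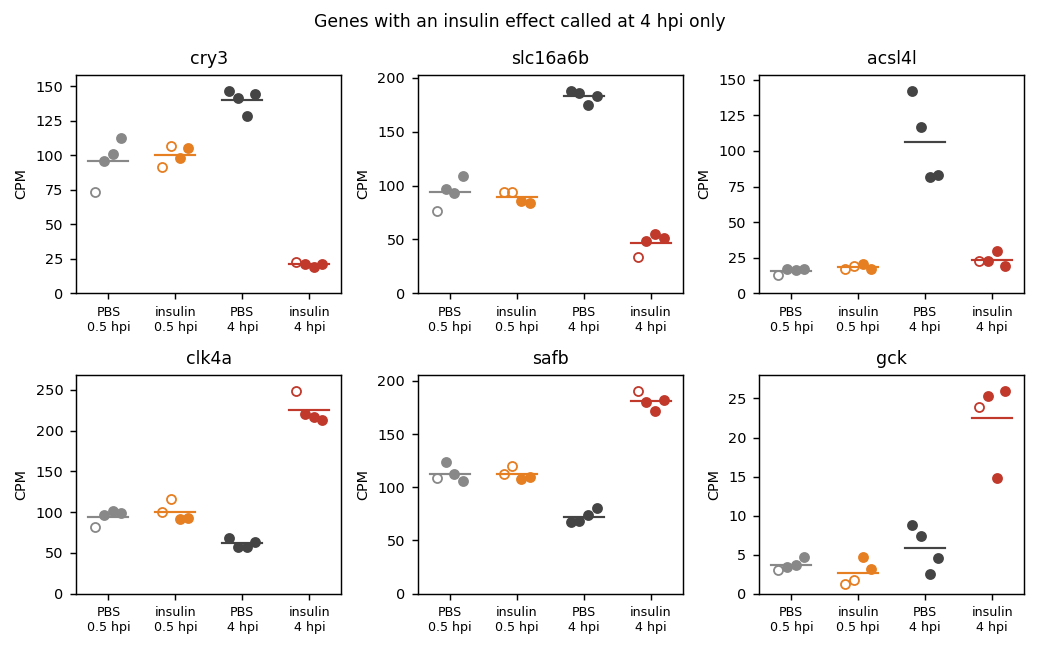
CPM of 6 late only genes by group, one circle per library in the order of the replicates, with a line at the group mean; open circles are the libraries that stand apart. At 0.5 hpi insulin and PBS overlap in all 6, and at 4 hpi insulin lies below PBS in cry3, slc16a6b and acsl4l and above it in clk4a, safb and gck.

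Of 44 genes of the insulin pathway itself, 3 were called, all late only. This share of 6.82% stands beside 9.59% of all genes tested. In the 12 libraries 8 were called, with 3 reversing, 4 late only and 1 early only, and 7 were called with a term for the libraries that stand apart and 7 without PBS replicate 4 at 0.5 hpi. In the same order, these fits called 2880 of 22003, 3448 of 21650 and 2940 of 21872 genes tested, more than the main fit. rictora, the mTORC2 subunit gene, was at 16.8, 21.4, 24.4 and 22 CPM in PBS and 11.7, 12.6, 12.8 and 12.4 CPM in insulin at 4 hpi (difference -0.91, SE 0.19, adjusted p = 0.0043). pik3cb, a catalytic PI3 kinase subunit, was at 52, 49.7, 40.5 and 36.8 CPM in PBS and 28, 31.3, 31 and 24.4 CPM in insulin (difference -0.82, SE 0.18, adjusted p = 0.00627). Insulin lay below PBS in all libraries for both, and they overlapped at 0.5 hpi. eif4ebp1, the translation repressor that mTORC1 phosphorylates, had a positive difference of 0.47 (SE 0.13, adjusted p = 0.0285), named after its value was seen.

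Of 26 genes that restrain insulin signalling, 5 were called, 4 with a negative difference, and 8 without PBS replicate 4 at 0.5 hpi and 3 without PBS replicate 1 at 4 hpi. socs3b, which inhibits cytokine and insulin receptors, was at 34.2, 36.9, 39.5 and 42.3 CPM in PBS and 34, 28.8, 33.8 and 34.7 CPM in insulin at 0.5 hpi. At 4 hpi it was at 104, 99.4, 72.1 and 54.6 CPM in PBS and 30.0, 37.5, 34.5 and 45 CPM in insulin, without overlap. Its difference was -0.95 (SE 0.23, adjusted p = 0.0149), and it was not called in the 12 libraries (adjusted p = 0.132). The tyrosine phosphatase gene of the title, ptpn6, has 2 entries on chromosome 16. The first was at 4.51, 2.69, 1.18 and 3.61 CPM in PBS and 1.63, 2.79, 3.04 and 3.35 CPM in insulin at 0.5 hpi, with overlap. By 4 hpi PBS stood at 1.86, 1.43, 1.98 and 1.43 CPM and insulin at 4.29, 5.63, 5.46 and 4.33 CPM, all insulin libraries above PBS, and it was called as late only with a difference of 1.73 (SE 0.43, adjusted p = 0.0155). The second entry was at 1.33, 0.815, 0.990 and 1.79 CPM in PBS and 2.95, 1.95, 3.33 and 2.47 CPM in insulin at 4 hpi, and its difference of 1.12 did not pass (adjusted p = 0.0887). Reads may have been split between them. The other 3 called, named after their values were seen, had negative differences: the pseudokinase gene trib1 (-1.25), the phosphatase gene ptpn11b (-0.90), which reversed, and tenc1a (-1.13).

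Of 36 FoxO and fasting targets, 7 were called, 5 with a negative difference, while the medians were -0.31 at 0.5 hpi and -0.35 at 4 hpi. The 2 that reversed from lower to higher were txnipb and, named after its value was seen, cited2 (difference 0.52, adjusted p = 0.0276). The others were lower at 4 hpi, such as the ubiquitin ligase gene fbxo32 (-1.74) and the FoxO factors foxo1a (-1) and foxo3b (-0.58), also named after their values were seen. In the 12 libraries 11 were called, 9 of them with a positive difference, without PBS replicate 2 at 0.5 hpi 4, and with library totals the median difference was -0.007 in place of 0.096.

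Of 12 AP-1 genes tested 6 were called, all with a negative difference: 4 were lower in insulin at both times and 2 were late only. The medians were -0.74 at 0.5 hpi and -1.95 at 4 hpi. fosb (chromosome 18) was late only, at 31.1, 49.5, 48.2 and 74.6 CPM in PBS and 69.5, 48.7, 43.2 and 30.4 CPM in insulin at 0.5 hpi, with wide overlap. The 4 hpi libraries held 36.6, 39.7, 37 and 53.1 CPM in PBS and 4.69, 3.14, 5.20 and 3.55 CPM in insulin. The difference was -3.24 (SE 0.40, adjusted p = 0.000183). fos had the same direction at both times, at 178, 244, 263 and 368 CPM in PBS and 237, 150.3, 111 and 77.3 CPM in insulin at 0.5 hpi and 93.6, 99.6, 107 and 76.6 and 5.36, 11.7, 6.13 and 6.80 CPM at 4 hpi. It fell over time by 1.48 in PBS and 4.24 in insulin on the log2 scale, and its difference was -2.76 (SE 0.47, adjusted p = 0.00298). With the 12 libraries 5 AP-1 genes were called, 4 with a negative difference and 0 late only, and the median difference was -0.72 in place of -1.33. fosb had an effect of -0.66 at 0.5 hpi there and was lower at both times. Of 37 other immediate-early genes 7 were called, 4 with a negative and 3 with a positive difference. In the 12 libraries 13 were called, 10 of them with a positive difference, and 4 were called without insulin replicate 2 at 0.5 hpi or without PBS replicate 1 or 2 at 4 hpi. The 2 with the smallest p were the ERK phosphatase dusp5 (32.3 to 38.6 CPM in PBS and 6.50 to 8.53 in insulin at 4 hpi, difference -1.93, with -0.79 at 0.5 hpi in the 12 libraries and so lower at both times there) and EGR4 (1 of 2) (difference -2.30, not called in the 12 libraries, adjusted p = 0.0761).

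Inflammatory genes were called in 16 of 42, all with a negative difference: 10 late only and 6 in the same direction. The medians were -0.21 at 0.5 hpi and -1.14 at 4 hpi, and the median change over time was 0.83 in PBS and -0.056 in insulin. mmp13a (chromosome 10), a collagenase of wounds and myeloid cells, was at 14.7, 16.6, 17.6 and 17.6 CPM in PBS and 13.5, 14.7, 8.18 and 7.19 CPM in insulin at 0.5 hpi. PBS at 4 hpi was at 170.1, 192, 123 and 90.9 CPM and insulin at 15.2, 19.1, 20.7 and 16.4 CPM. The groups overlapped at 0.5 hpi, and PBS lay above insulin in all libraries at 4 hpi. The difference was -2.41 (SE 0.34, adjusted p = 0.000375), and it was not called in the 12 libraries (-1.75, adjusted p = 0.0526).

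irg1, which makes itaconate in activated macrophages, was at 2.59, 2.29, 1.58 and 3.37 CPM in PBS and 4.13, 1.39, 4.09 and 3.22 CPM in insulin at 0.5 hpi. Its levels at 4 hpi were 12.2, 14.5, 11.2 and 11.5 CPM in PBS and 4.43, 4.12, 3.06 and 2.32 CPM in insulin (difference -2.18, SE 0.39, adjusted p = 0.00184). ncf1, a subunit of the phagocyte NADPH oxidase, was at 14, 15.4, 10.8 and 12.4 CPM in PBS and 6.44, 5.53, 4.66 and 4.79 CPM in insulin at 4 hpi (difference -1.20, SE 0.30, adjusted p = 0.0147). Both overlapped at 0.5 hpi and did not at 4 hpi. Further members, named after their values were seen, were the cytokine gene il1b (difference -2.59), the prostaglandin synthase ptgs2b (-2.46) and mmp9 (-1.66), lower at both times, and tnfb (-2.43) and the NF-kappaB genes rela (-0.74), relb (-1.08) and nfkb2 (-0.90), late only. Of 32 neutrophil and macrophage markers, 6 were called, 4 lower and 2 higher, and in the 12 libraries 8, 2 lower and 6 higher. The summed markers were at 538 to 655 CPM in PBS and 521 to 622 in insulin at 0.5 hpi, and at 782 to 1012 and 703 to 797 CPM at 4 hpi. Their part in the inflammatory differences was not tested. With 12 libraries 10 of the inflammatory genes were called, and with the near-identical pair summed as well 8, all of them lower.

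Other late only genes with a small p were si:dkey-258f14.2 (difference -2.08) and zgc:113263 (-1.80), both lower, and the Mediator subunit med16 (1.53), C19H6orf136 (1.46), the sialic acid synthase NANS (1 of 2) (1.95) and the formin-binding FNBP4 (1.00), all higher. Insulin and PBS did not overlap at 4 hpi in any of these 6, beside 33.5% of all genes tested. These 6 were named for a small p from the same values, so this is a description. NANS (1 of 2) reversed in the 12 libraries, with an effect of -0.47 at 0.5 hpi. Marker genes were called in 0 of 45 for muscle, 0 of 20 for exocrine pancreas and 1 of 33 for liver (3.03%). For neurons 2 of 32 were called (6.25%) and for red cells 2 of 20 (10%), beside 9.59% of all genes tested. Named after their values were seen, the called markers were the vitamin D carrier gc in liver (difference 1.04), the synaptic nrxn1a (-0.78) and the acetylcholine-making chat (-0.73) in neurons, and the mitochondrial iron importer slc25a37 (-1.82) and beta-spectrin sptb (-0.49) in red cells. The exocrine markers had a median difference of 0.76, with summed levels of 1947 to 2862 CPM in PBS and 3843 to 5914 CPM in insulin at 4 hpi, whose part in other results was not tested. The intestinal aminopeptidase anpepb was late only (89 to 102 CPM in PBS and 176 to 222 in insulin at 4 hpi, difference 0.96, SE 0.16, adjusted p = 0.00108), as was the blue cone opsin opn1sw2 (difference 0.70, adjusted p = 0.017). APOA4 (1 of 4), an apolipoprotein gene, was called (difference 0.78), but not in 15 of the 28 alternatives.

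Among the same-direction genes odc1, the rate-limiting enzyme of polyamine synthesis, did not overlap at either time. It was at 174, 244, 240.3 and 237 CPM in PBS and 173, 121, 155 and 155 CPM in insulin at 0.5 hpi, and at 475, 527, 426 and 387 and 86.4, 92.8, 93 and 97.6 CPM at 4 hpi. PBS rose over time (by 1.02) and insulin fell by 0.71, which gave a difference of -1.73 (SE 0.18, adjusted p = 8.62e-06). ldlr, the LDL receptor gene, was at 64.6 to 81.9 CPM in PBS and 30.0 to 42.2 CPM in insulin at 4 hpi (difference -0.82, adjusted p = 0.0038). sgk1, a kinase that glucocorticoids and insulin regulate, had a difference of -0.93 (SE 0.25, adjusted p = 0.0235), which was -0.33 in the 12 libraries and not called there (adjusted p = 0.131). Of the 86 genes of this class 76 were lower in insulin at both times.

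Early only genes numbered 121, with 75 higher and 46 lower in insulin at 0.5 hpi, and 14 passed there by adjusted p. Their median effect in size was 0.48 at 0.5 hpi and 0.21 at 4 hpi. The groups did not overlap at 0.5 hpi in 85 of the 121, beside 6.1% of all genes tested, which also comes from the values that sorted them. Several single libraries moved the number of early only genes by more than 1.5 times. Without PBS replicates 1, 2 and 3 at 0.5 hpi in turn it was 200, 50 and 56, and without insulin replicate 4 there 70. Without PBS replicates 1, 2, 3 and 4 at 4 hpi it was 60, 74, 76 and 72, and without insulin replicate 2 there 72.

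Early only genes that were higher in insulin included signalling and repair genes. MRAS (1 of 2) (chromosome 22), of the Ras family, was at 35.3, 32, 30.7 and 34.2 CPM in PBS and 47.4, 60.0, 50.1 and 50.4 CPM in insulin at 0.5 hpi, without overlap. At 4 hpi it was at 42.4, 42, 38.2 and 47.1 CPM in PBS and 36.7, 43, 40.6 and 39.9 CPM in insulin, with overlap. The effects were 0.65 (SE 0.099) and -0.081 (SE 0.099), the second with a 95% interval of -0.29 to 0.13, and the difference was -0.74 (SE 0.14, adjusted p = 0.00288). rev1 (chromosome 9), a DNA polymerase of translesion synthesis, was at 31.8, 30.1, 29.6 and 29.5 CPM in PBS and 44, 41.9, 41.5 and 39.8 CPM in insulin at 0.5 hpi. By 4 hpi PBS stood at 34.6, 33.8, 38.8 and 33.3 CPM and insulin at 35, 30.6, 30.1 and 30.3 CPM, with overlap through insulin replicate 1, which stands apart. The difference was -0.62 (SE 0.13, adjusted p = 0.0044). Without the 4 libraries rev1 reversed, with an effect at 4 hpi of -0.21.

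arr3a (chromosome 10), the cone arrestin of photoreceptors, was at 236, 269, 260.3 and 291 CPM in PBS and 452, 464, 446 and 478 CPM in insulin at 0.5 hpi. The 4 hpi libraries held 411, 407, 350.1 and 456 CPM in PBS and 184, 376, 376 and 381 CPM in insulin, with insulin replicate 1, which stands apart, below the other 3. The difference was -1.10 (SE 0.23, adjusted p = 0.00575), and -0.83 in the 12 libraries. Of 46 photoreceptor and lens markers 3 were called (6.52%, beside 9.59% of all genes tested), 1 with a positive and 2 with a negative difference. In the 12 libraries 10 were called, 8 with a positive and 2 with a negative difference. The list's median effect at 0.5 hpi was -0.26 and its median difference 0.67, both opposite in sign to those of arr3a. The summed level of the markers was 8802 to 10350 CPM in the 4 libraries that stand apart and 11010 to 17360 CPM in the others. Its part in this result was not tested. suz12b, of the Polycomb repressive complex, had a difference of -0.63 (SE 0.14, adjusted p = 0.00881), PAPD5, a poly(A) polymerase, of -0.66 (SE 0.15, adjusted p = 0.00901) and DACT3 (2 of 2), a Wnt antagonist, of -0.83 (SE 0.17, adjusted p = 0.00551). For zgc:65997 it was -1.07 (SE 0.24, adjusted p = 0.0089). In these 4 genes all insulin libraries were above PBS at 0.5 hpi and the groups overlapped at 4 hpi. By adjusted p, the early effect of PAPD5 did not pass (0.0635). Without the 4 libraries zgc:65997 reversed, with an effect of -0.38 at 4 hpi.

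Ribosome biogenesis genes were called in 5 of 59 (8.47%, beside 9.59% of all genes tested): 3 early only and up, nop2 reversing and 1 late only and up. ppan, a factor of the large ribosomal subunit, was at 25.8, 16.8, 14.9 and 12.9 CPM in PBS and 24.1, 25.5, 27.6 and 32.6 CPM in insulin at 0.5 hpi, with PBS replicate 1 inside the insulin range. Its difference was -0.90 (SE 0.25, adjusted p = 0.027), and -1.34 in the 12 libraries, where it reversed (-0.34 at 4 hpi). With all 16 libraries the early effect of ppan did not pass by adjusted p (0.11). The others, named after their values were seen, were gnl3 (-0.70) and mphosph10 (-0.66), early only, and bop1 (0.59), late only. With the 12 libraries 23 of the genes were called, all with a negative difference, 15 of them early only, and the list's median effects were 0.49 at 0.5 hpi and 0.11 at 4 hpi. With all 16 libraries the medians were 0.26 and 0.24, and with the near-identical pair summed 2 genes were called. Leaving out single libraries gave as few as 1 call, without PBS replicate 2 at 0.5 hpi.

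Early only genes with a lower level in insulin included genes of lipid metabolism, cilia and patterning. creb3l3 (chromosome 22), a membrane-bound factor of hepatic and intestinal lipid metabolism, was at 14.2, 17.4, 14.3 and 13.8 CPM in PBS and 8.27, 10.3, 8.41 and 8.92 CPM in insulin at 0.5 hpi. PBS at 4 hpi was at 15.6, 13, 13.4 and 10.2 CPM and insulin at 13.4, 13.1, 18.9 and 14.5 CPM, with overlap. Its effect at 0.5 hpi was -0.73 (SE 0.15), with an adjusted p of 0.0411, and the difference was 0.93 (SE 0.22, adjusted p = 0.00992). slc27a2a (chromosome 18), which takes up and activates very long-chain fatty acids, was at 97.9, 97.4, 96.3 and 90.6 CPM in PBS and 70.7, 57.8, 76 and 72.5 CPM in insulin at 0.5 hpi. Its levels at 4 hpi were 60.6, 69.9, 66.2 and 68.4 CPM in PBS and 85, 75.8, 79.4 and 60.1 CPM in insulin, with overlap (difference 0.65, SE 0.15, adjusted p = 0.0117). PBS fell over time by 0.53 and insulin changed by 0.12. By adjusted p, the early effect of slc27a2a did not pass (0.0635).

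foxj1a (chromosome 3), the master regulator of motile cilia, was at 7.44, 7.94, 7.76 and 7.58 CPM in PBS and 5.51, 5.11, 5.49 and 4.83 CPM in insulin at 0.5 hpi. At 4 hpi it was at 7.18, 6.73, 7.70 and 8.21 CPM in PBS and 9.25, 10.3, 7.73 and 7.88 CPM in insulin. The groups were apart at 0.5 hpi and overlapped at 4 hpi, and the difference was 0.79 (SE 0.20, adjusted p = 0.0177), while the early effect alone did not pass by adjusted p (0.1). The difference was 0.50 for cdon, a Hedgehog coreceptor, 0.56 for the ephrin receptor gene ephb4b, 0.49 for the forkhead gene foxp1a and 0.70 for col17a1b, a collagen of hemidesmosomes. It was 0.89 for wu:fb55g09 and 1.13 for si:ch211-173n18.4. Adjusted p of the difference ran from 0.00753 to 0.0254 for these 6, while none of their early effects passed by adjusted p (0.052 to 0.13). Insulin was below PBS in all libraries at 0.5 hpi, where the groups did not overlap in 6.1% of all genes tested. Of the 6, col17a1b was not called in 9 of the 28 alternatives, the 12 libraries among them (adjusted p = 0.0502), and foxp1a in 4. Without the 4 libraries wu:fb55g09 and ephb4b reversed, with effects of 0.28 and 0.23 at 4 hpi.

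**Figure D4:**
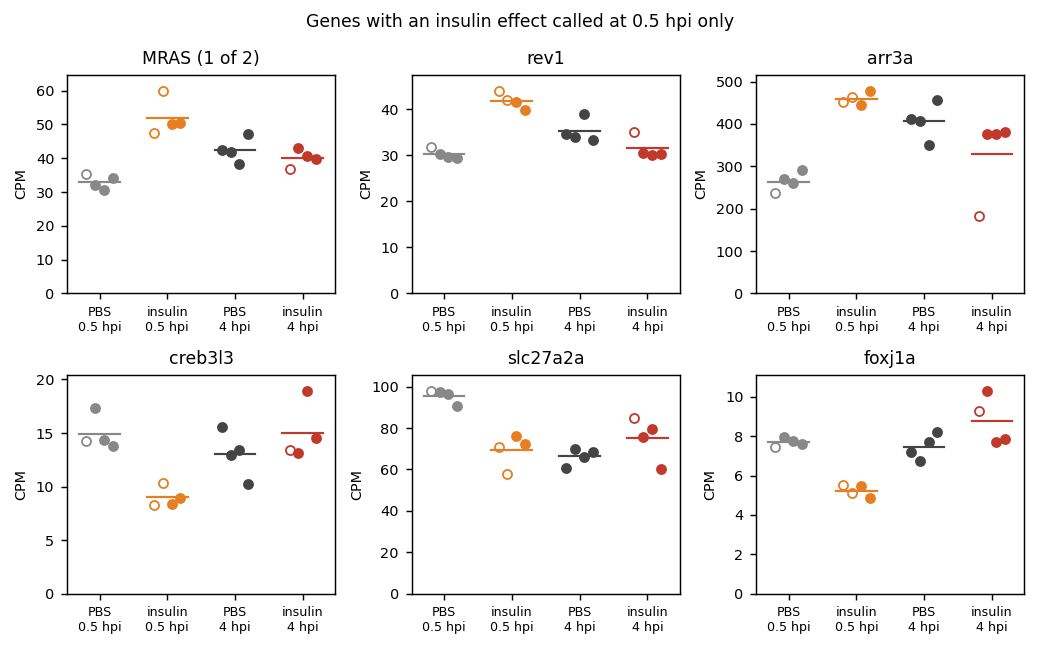
CPM of 6 early only genes by group, one circle per library in the order of the replicates, with a line at the group mean; open circles are the libraries that stand apart. Insulin is above PBS in MRAS (1 of 2), rev1 and arr3a and below it in creb3l3, slc27a2a and foxj1a at 0.5 hpi without overlap, and the groups overlap at 4 hpi with all 16 libraries.

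With all 16 libraries the repair list held 4 reversing and 2 early only genes, the splicing list 10 late only genes, the activator list 7 late only of 8, and the inflammatory list 10 late only and 6 same-direction genes of 16. Among the 12 libraries the repair list held 6 reversing genes, the splicing list 6 late only and 5 reversing, the activator list 5 late only and 2 reversing, and the inflammatory list 7 late only of 10. Calls numbered 4 of 28 among skin markers (14.3%), 3 of 25 among glucocorticoid targets (12%) and 3 of 21 among intestine markers (14.3%). The difference was higher in 2 and lower in 2 of the skin calls, higher in 1 and lower in 2 of the glucocorticoid calls. It was higher in all 3 intestine calls. Over all genes tested the share was 9.59%. In the 12 libraries these lists had 6, 5 and 1 calls, of which 6, 4 and 1 were higher, beside 2880 of all 22003 genes tested there. Since the lists were written with earlier results of these data known, these counts describe the lists and are no test of them.

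**Figure D5:**
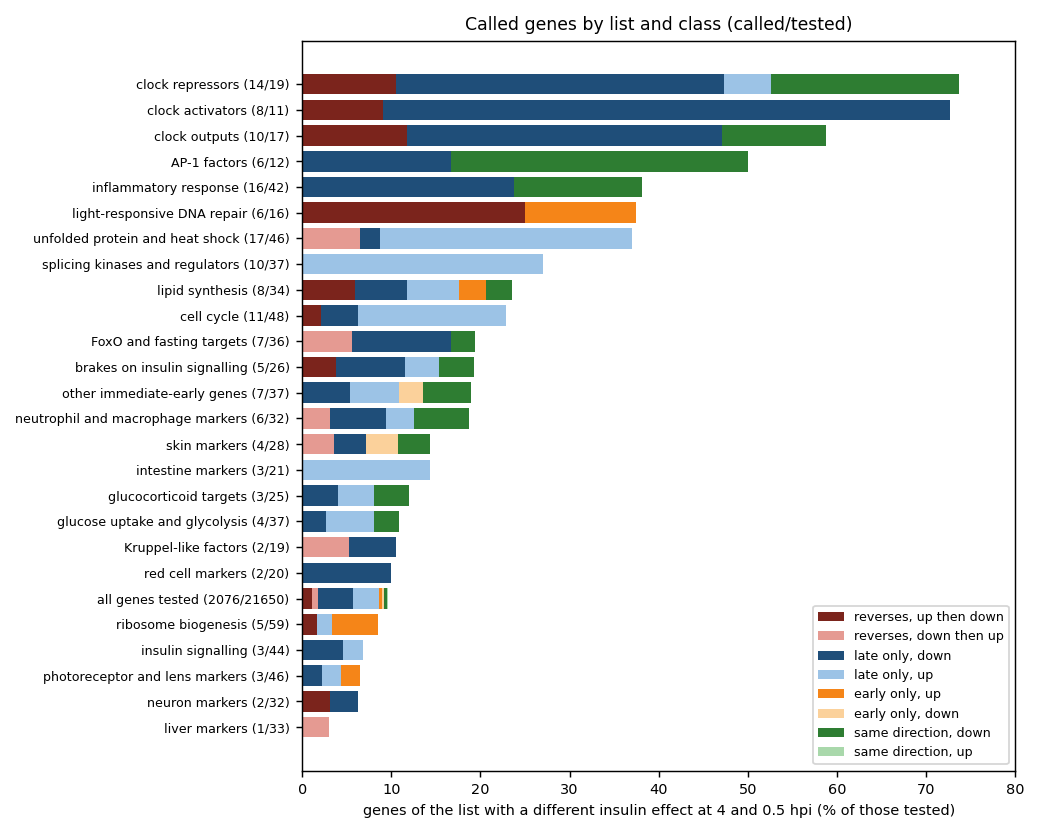
Share of the tested genes of each list with a different effect of insulin at 4 and 0.5 hpi, in percent, stacked by class and direction of the effect of insulin, with called and tested genes beside each name; lists with 0 calls are left out. The 3 clock lists lie between 58.8% and 73.7%, and all genes tested at 9.59%.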

How the data were processed

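The deposited values were counts per gene, whole numbers in 1 table per library, with 31452 Ensembl genes. Per the submitters' processing notes the build was Zv9; the sources used here name no aligner or counter and do not give the strandedness, so reads of overlapping or antisense genes cannot be told apart. Genes were kept with filterByExpr, scaled with TMM and fitted with edgeR 4.0.16 (glmQLFit with the robust option, glmQLFTest) in R 4.3.3, with the 4 groups as levels, all 16 libraries and 12 residual degrees of freedom. Tests were two-sided, with Benjamini-Hochberg adjustment over 21650 genes at 0.05. CPM are edgeR's, over TMM-scaled totals. The 27 gene lists (868 of 935 entries found) and the rules were chosen with earlier results of these data known. Named genes averaged at least 2 CPM. They were the 8 in each direction that reversed with the largest smaller effect and up to 10 that passed at both times, the 8 late and 8 early only in each direction and 3 same-direction genes with the smallest p, the 2 with the smallest p of each list with 3 or more calls, and ptpn6. Alternatives were DESeq2 1.42.0, limma 3.58.1 voom, other scalings and filters, a replicate block and a term for whether the header names a lane. Terms for or removal of libraries and other class rules were also used.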

Additional observations from a re-analysis of the deposited data

Results flagged for a closer look

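The insulin effect differed between 0.5 and 4 hpi in 2076 genes by a test of the difference itself. In 26 of 360 groups of 4 libraries of the named genes (7.22%), 1 library lay far from the other 3, where chance gives about 1 in 20.

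In PBS replicate 1 at 0.5 hpi, which stands apart, odc1 (173.7 CPM), sgk1 (140.6) and C19H1orf51 (1 of 2) (131.6) were low, and cry5 (10.03), nop2 (51.3) and suz12b (69.45) were high. In insulin replicate 1 at 4 hpi, which also stands apart, serpinh1b (198.7), hsp90aa1.2 (205.6), rev1 (35) and si:ch211-161h7.5 (20.11) were high and opn1sw2 (320.5), arr3a (183.8) and ercc6 (19.58) low. At 0.5 hpi insulin replicate 1 was low in ldlr (34.45) and zgc:113263 (42.46), and insulin replicate 2 was low in socs3b (28.78) and high in suz12b (101).

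Among the other 12 libraries, PBS replicate 4 at 0.5 hpi was high in per1a (85.64), anpepb (129.3) and si:ch211-173n18.4 (8.78). PBS replicate 2 was high in creb3l3 (17.36), PBS replicate 3 in ercc6 (23.82) and insulin replicate 4 in kcnk9 (29.99) at 0.5 hpi. At 4 hpi PBS replicate 3 was high in EGR4 (1 of 2) (51.58) and si:dkey-104n9.1 (6.268), and insulin replicate 2 was low in FAM26E (1 of 2) (1.408).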

How the results depend on the processing

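With a term for the 4 libraries that stand apart 3448 genes were called, 637 reversed, 2347 were late only and 341 early only. Without those libraries 721 reversed and 538 were early only, with the near-identical pair summed 57 were early only, and with both steps 607 reversed and 413 were early only. Classes by an effect of at least 0.5 gave 104 reversing and 67 early only genes, and an unadjusted p under 0.01 gave 116 reversing. Leaving out 1 library gave 259 to 589 reversing genes, 1010 to 2135 late only and 50 to 200 early only; the highest count of reversing genes was without PBS replicate 4 and the lowest without PBS replicate 2 at 0.5 hpi. The cause of these shifts was not tested. The replicate block gave 2278 calls, 393 reversing, 1628 late only and 159 early only. Same-numbered libraries of different groups correlated at -0.156 to 0.488 (median 0.042) and over 0.1 in 8 of 24 pairs. Those with different numbers correlated at -0.34 to 0.266 (median -0.005) and over 0.1 in 12 of 72 pairs. Among the libraries that stand apart, pairs with the same number gave 0.488, 0.247 and 0.16, and pairs with different numbers 0.257 and 0.243. Whether the replicate numbers pair the libraries was not tested. DESeq2 called 2422 genes, limma voom 2119 and a fit without a filter on low counts 1778. A term for whether a library's header names any lane gave 1786 calls. That term merges all named lanes and does not adjust for the lane itself. The 19 genes that passed at both times with all 16 libraries were classed as reversing in every refit but 1. With a filter of 10 CPM 16 were, and genes under that filter, such as ZMAT1 and si:dkey-104n9.1, were not tested there. Classes set by size reuse the effects of the main fit and kept 14. By that rule pogzb no longer counted as reversing, since its effects of 0.454 at 0.5 hpi and -0.432 at 4 hpi, though of opposite sign, are under 0.5 in size. Of 89 named called genes 74 were called in each of the 28 alternatives in which they were tested, and 0 changed the sign of their difference. Genes removed by the filter of 10 CPM had no test in that alternative and are counted by the others. Most were named for a small p or a large effect in these same libraries, so their share does not describe all calls. Of all 2076 calls, 1571 were also called in the 12 libraries and 1353 there with the near-identical pair summed. With single libraries left out 1440 to 1969 of the 2076 were also called.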
